A study of Mus musculus with 8 samples.

Results

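The phagocyte NADPH oxidase was examined in macrophages of mouse pancreatic islets through 6 of its genes: Cybb and Cyba, which encode the membrane chains, Ncf1 and Ncf4, which encode cytosolic subunits, and the GTPase genes Rac1 and Rac2. The members were chosen by name, as the rows of the gene table whose symbol is one of these 6, and each matched 1 of the 48440 rows. RNA came from cells sorted for CD11b and F4/80 from islets of wild-type male C57BL/6J mice, aged 16 weeks. One group ate chow (8% fat, 21% protein, 71% carbohydrate, 10.88 kJ/g) and the other a high-fat diet, HFD (45% fat, 20% protein, 35% carbohydrate, 19.67 kJ/g), for 8 weeks. There were 4 libraries for each diet, and the extracts of 2 mice were pooled for each library, so the spread between libraries is a spread between pools. Per kilobase of exon Cybb was the most abundant of these transcripts and Ncf4 the least in every library, and no difference between the diets was detected for any of them.

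The oxidase is a multi-subunit enzyme that moves electrons from NADPH across a membrane onto oxygen and so makes superoxide, the first product of the respiratory burst. Its catalytic chain (NOX2, from Cybb) and the smaller chain that stabilises it (from Cyba) form a cytochrome that is fixed in the membrane. The cytosolic subunits and a GTP-loaded Rac join it only when the phagocyte is triggered, and inherited loss of the enzyme causes chronic granulomatous disease. Macrophages and neutrophils both carry it.

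Library totals ranged from 4288665 to 6391247 counts. Levels are given as CPM, counts relative to library size, scaled with the trimmed mean of M-values, TMM, and a difference as log2 of HFD over chow. In whole libraries fewer cells of a type and less RNA per cell cannot be told apart. The sort markers were present in all 8 libraries, with Itgam (CD11b) at 196 to 406 CPM and Adgre1 (F4/80) at 319.5 to 596 CPM. Of 13 neutrophil genes, 11 were at 0 in every library, among them S100a8, S100a9, Ly6g, Mpo and Elane. The neutrophil sum of 30.4 to 92.2 CPM under chow and 35.7 to 121 CPM under HFD came almost wholly from Csf3r, the receptor for granulocyte colony-stimulating factor, and in HFD replicate 5 also from Mmp8, at 20.4 CPM. The summed level of 12 macrophage genes was 5968 to 8168 CPM (chow) and 6243 to 7197 CPM (HFD). Marker genes of other cells were also present, with sums given for chow and then HFD. The endocrine sum was 458 to 1746 and 983 to 1835 CPM. The acinar sum ran from 0.223 to 3491 CPM and from 37.9 to 1725 CPM. The stellate and fibroblast sum ran from 24.1 to 132 CPM and from 103 to 482 CPM. The monocyte sum was 655 to 1084 and 698 to 1194 CPM, mostly from Ccr2 at 627 to 1064 CPM. The B cell sum was 271 to 486 and 213 to 324 CPM, and the dendritic cell sum 270 to 324 and 152 to 287.5 CPM. The part of such RNA in the comparisons was tested only by an acinar covariate and a stellate and fibroblast covariate. The stellate and fibroblast covariate overlapped with diet, since most HFD libraries had a higher sum than chow. The fit could not separate it from diet.

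Cybb (ENSMUSG00000015340, chromosome X, 9435252 to 9487771, minus strand, GRCm38) was an abundant transcript in every library. It was at 2815, 2185, 2079 and 2026 CPM (chow replicates 1 to 4), and at 2378, 2302, 1930 and 2356 CPM (HFD replicates 5 to 8). Chow replicate 1 was the highest and HFD replicate 7 the lowest, and the diets overlapped. The means were 2277 ± 365 and 2242 ± 210.0 CPM (chow and HFD, SD, n = 4). The log2 fold change was -0.02 (SE 0.13, edgeR adjusted p = 0.988), with a 95% confidence interval of 0.816- to 1.19-fold. Between 8663 and 14109 reads in a library lay behind each Cybb value.

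Cyba (ENSMUSG00000006519, chromosome 8, 122424776 to 122432930, minus strand), the gene of the partner chain, rested on only 44 to 133 reads in a library. It was at 21.65, 11.5, 12.96 and 15.2 CPM in the chow libraries and at 8.65, 12.8, 21.3 and 26.5 CPM in the HFD libraries. The HFD libraries held both the lowest and the highest value and spanned the chow range. The means were 15.3 ± 4.49 CPM under chow and 17.3 ± 8.09 CPM under HFD (SD, n = 4), and the log2 fold change was 0.18 (SE 0.75, edgeR adjusted p = 0.987). Its confidence interval ran from 0.379- to 3.37-fold, so that changes within that range were not excluded for Cyba. The spread between libraries, a coefficient of variation of 46.8% in HFD, was wider than the 11.3% that counting alone would give.

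**Figure D1:**
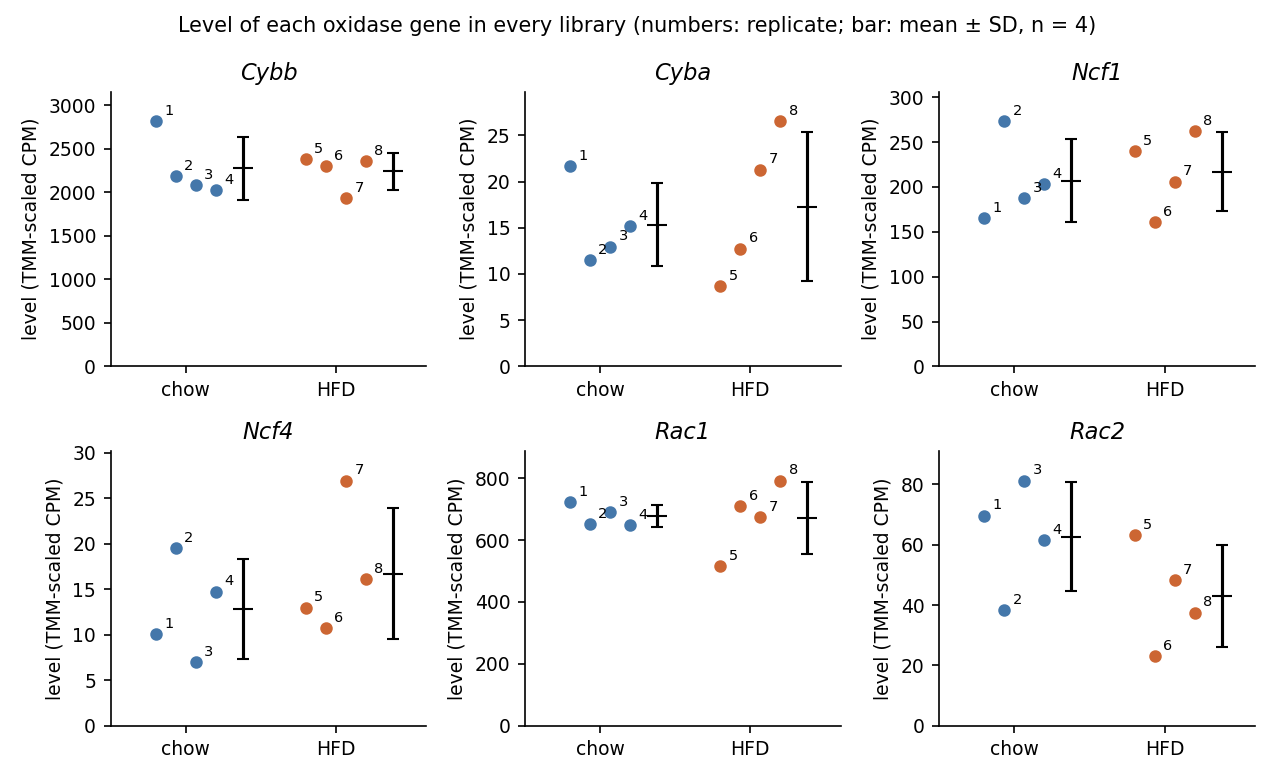
Level of each of the 6 oxidase genes in TMM-scaled CPM (vertical axes start at 0) in every library, with chow in blue, HFD in orange, the replicate number beside each point and the mean ± SD of 4 libraries as a black bar. The points of the 2 diets overlap for all 6 genes, and Cybb lies at 1930 to 2815 CPM while Cyba lies at 8.65 to 26.5 CPM.

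PU.1 and interferon regulatory factors are known to act on Cybb, and their letters were looked for in the 300-base promoters of RefSeq (GRCm38.p6; 250 bases before and 50 after the start), which the table held for Cybb, Cyba and Ncf1. The RefSeq start of Cybb used there lies inside the gene span given above, not at its upstream end. The search ran on both strands for GAGGAA (PU.1 core) and GAAANNGAAA (interferon response element), both chosen with the sequences in view. Cybb held GAGGAA once and GAAANNGAAA at 3 positions, Ncf1 held GAAANNGAAA once, and Cyba held neither. Over all 32851 promoters of that length, 28.28% held GAGGAA and 3.44% held GAAANNGAAA. The 30 bases around each match are shown to let the letters be read in place. They read 5′ to 3′ along the minus strand, with the match in capitals. A match of letters is a description and does not show that a factor is bound there.
Cybb, interferon response element, first base 168 before the start, on the other strand, chrX:9469473-9469502: tagcagtagcTTTCATTTTCcagtgtattt
Cybb, interferon response element, first base 124 before the start, on the other strand, chrX:9469429-9469458: cacaagatctTTTCTCTTTCtgtagttttt
Cybb, interferon response element, first base 29 before the start, chrX:9469334-9469363: tctgataataGAAAAGGAAAcctattgccc
Cybb, PU.1 core, first base 10 after the start, on the other strand, chrX:9469298-9469327: tgctgttttcatTTCCTCatcagaagaaga
Ncf1, interferon response element, first base 82 before the start, chr5:134229688-134229717: aaaattctcaGAAAGTGAAAgactaagtct

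Of the cytosolic subunits, Ncf1 encodes the organiser (p47-phox), which on phosphorylation opens and docks on the membrane cytochrome. Ncf1 (ENSMUSG00000015950, chromosome 5, 134220053 to 134229625, minus strand) was at 165, 273, 188 and 203 CPM under chow and at 240, 161, 206 and 262 CPM under HFD. Each diet had libraries near both ends of the range, and the means were 207 ± 46.6 and 217 ± 44.2 CPM (SD, n = 4). The log2 fold change was 0.07 (SE 0.24, edgeR adjusted p = 0.987), with an interval of 0.739- to 1.49-fold. Its 3′ end shares 408 exonic bases with Gtf2ird2 on the opposite strand. In the 3 libraries where the deposited Ncf1 value was off a whole number by more than 0.015, it summed with the Gtf2ird2 value to a whole number within 0.015, so that a few reads were divided between these genes.

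Ncf4 encodes the subunit (p40-phox) that binds phosphatidylinositol 3-phosphate and holds the oxidase on phagosomes. Ncf4 (ENSMUSG00000071715, chromosome 15, 78244801 to 78262580, plus strand) was at 10.04, 19.5, 6.99 and 14.7 CPM under chow and at 12.97, 10.7, 26.9 and 16.1 CPM under HFD, from 34 to 129 reads in a library. HFD replicate 7 was the highest and chow replicate 3 the lowest, and the remaining libraries were interleaved. The log2 fold change was 0.38 (SE 0.79, edgeR adjusted p = 0.987), with an interval of 0.413- to 4.09-fold, the widest of the 6.

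The GTPase genes differed in level and spread. Rac1 (ENSMUSG00000001847, chromosome 5, 143503634 to 143528036, minus strand), the widely expressed form that also drives lamellipodia, was at 723, 651, 690 and 648 CPM under chow and at 515, 709, 675 and 792 CPM under HFD. The chow libraries lay close together, and the HFD libraries reached both below and above them. Its log2 fold change was -0.01 (SE 0.16, edgeR adjusted p = 0.997), with an interval of 0.785- to 1.26-fold. Rac1 shares 2309 exonic bases with Daglb on the opposite strand, and in all 8 libraries the fractional Rac1 and Daglb values summed to whole numbers within 0.015. The 27509 Rac1 counts over all libraries stood against 1256 for Daglb.

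Rac2 (ENSMUSG00000033220, chromosome 15, 78559167 to 78572783, minus strand), the form largely restricted to blood cells, was at 69.6, 38.4, 81.25 and 61.5 CPM under chow and at 63.3, 23.1, 48.2 and 37.5 CPM under HFD. HFD replicates 6 and 8 were below every chow library for Rac2, and HFD replicates 5 and 7 lay within the chow range. The means were 62.7 ± 18.1 and 43.0 ± 17.0 CPM (SD, n = 4). Rac2 had the lowest p of the 6 genes, yet its log2 fold change of -0.54 (SE 0.45, edgeR adjusted p = 0.987) had an interval of 0.359- to 1.31-fold.

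None of the 6 genes was called by edgeR at an adjusted p of 0.05, and none had diets that did not overlap. The background for the calls was 0% of 10129 genes tested, and for levels that did not overlap it was 3.40%, 344 genes. At an unadjusted p under 0.05 the background was 5.35%, 542 genes, with 0 of the 6 members among them. DESeq2, which gave a p to 16953 genes before its own filter on low counts, called 92. Limma-voom with quality weights called 1, and both called 0 of the 6. All 6 passed the filter on low counts. Of these, 3 had a positive and 3 a negative log2 fold change, with a median of 0.03 against -0.02 over all genes tested, but the signs of Cybb and Rac1 turned with the scaling. Under 19 alternatives for each gene the members stayed uncalled. Their log2 fold changes lay between -0.08 and 0.19 for Cybb, -0.10 and 0.90 for Cyba, -0.04 and 0.23 for Ncf1, 0.05 and 0.65 for Ncf4, -0.10 and 0.20 for Rac1, and -0.78 and -0.34 for Rac2. Scaled to the macrophage list in place of TMM, the values were 0.08 for Cybb, 0.30 for Cyba, 0.14 for Ncf1, 0.43 for Ncf4, 0.08 for Rac1 and -0.41 for Rac2.

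**Figure D2:**
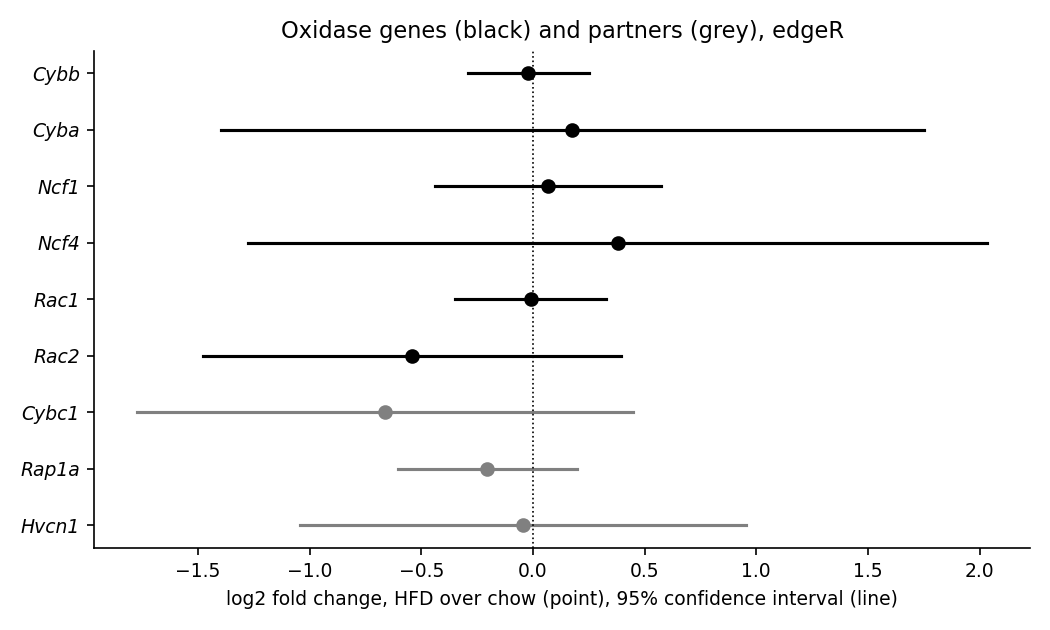
Log2 fold change of HFD over chow from edgeR (points) with 95% confidence intervals (lines) for the 6 oxidase genes in black and 3 partner genes in grey; the dotted line marks no change. All 9 intervals include 0, from the narrow one of Cybb (-0.29 to 0.25) to the wide one of Ncf4 (-1.28 to 2.03).

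Compared per kilobase of exon, the oxidase transcripts were present in very unequal amounts. In chow, Cybb was at 392 ± 62.9, Rac1 at 151 ± 7.93, Ncf1 at 56.6 ± 12.7, Rac2 at 20.2 ± 5.83, Cyba at 14.7 ± 4.32 and Ncf4 at 6.35 ± 2.71 CPM per kb (SD, n = 4). In HFD they were at 386 ± 36.2, 150 ± 25.9, 59.3 ± 12.1, 13.9 ± 5.48, 16.7 ± 7.78 and 8.26 ± 3.56 CPM per kb. In all 8 libraries Cybb was first, Rac1 second and Ncf1 the third, with no overlap between these neighbours, and Ncf4 was the lowest. Within a library Rac2 was above Cyba in all 4 chow libraries and in HFD replicate 5, and below it in HFD replicates 6, 7 and 8, and the ranges of these genes overlapped in both diets. With the longest annotated transcript as the length, Cybb was at 479 ± 76.8 and Cyba at 20.6 ± 6.03 CPM per kb in chow.

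The guanine and cytosine (GC) content of the longest coding transcript also differed between the genes. It was 42.4% for Cybb and 48.3% for Rac1, 52.8% for Rac2 and 53.4% for Ncf1, and 55.7% for Ncf4 and 59.3% for Cyba. The median over 8986 tested genes was 48.9%, and 96.5% of them had a lower GC content than Cyba. Cyba was also the shortest, at 1039 bases of exon against 5808 for Cybb. The part of GC content and length in these levels was not tested, so the per-length values describe these amplified libraries and not molecules per cell.

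**Figure D3:**
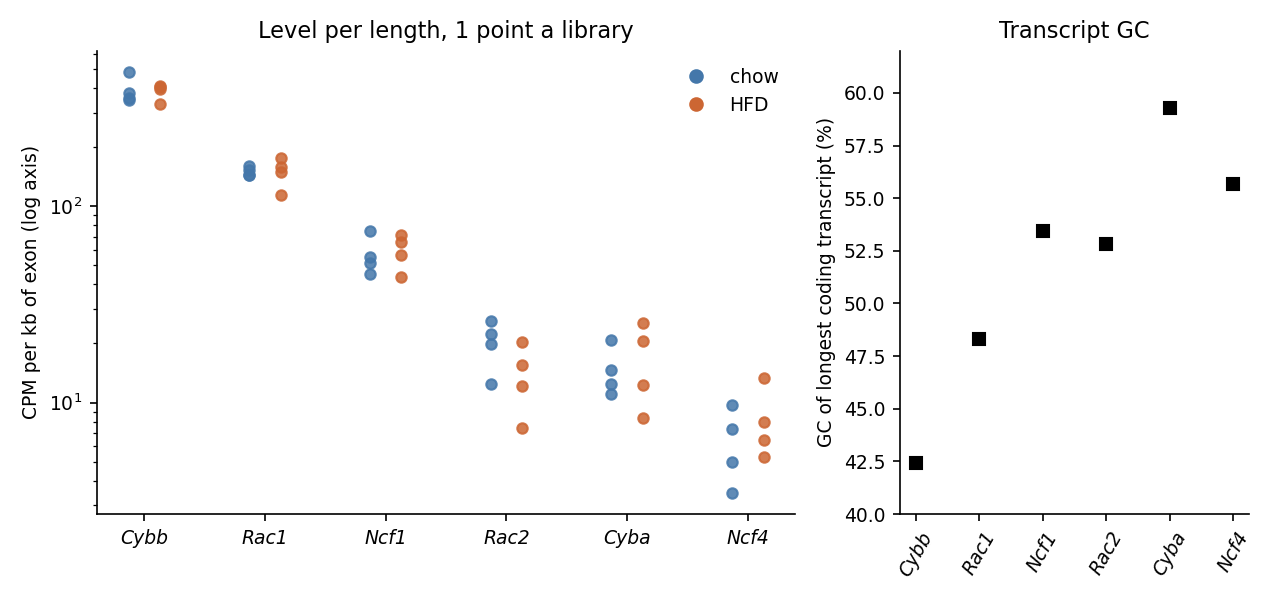
Left, level per kilobase of exon on a log axis for the 6 oxidase genes, with 1 point for each library (chow blue, HFD orange). Right, GC content of each gene's longest coding transcript. Cybb lies at 332 CPM per kb or more in every library and Ncf4 at 13.3 or less, while GC content runs from 42.4% for Cybb to 59.3% for Cyba.

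Ratios of subunits within a library, which do not depend on the scaling between libraries, were compared for 3 pairs. Per kilobase, Cybb exceeded Cyba 23.3- to 34.1-fold in chow and 15.9- to 49.2-fold in HFD. HFD replicate 5 had the highest and HFD replicates 7 and 8 the lowest Cybb to Cyba ratios. The mean log2 ratio of HFD minus chow was -0.10 (exact permutation test over 70 arrangements, two-sided, p = 0.80, adjusted over 3 ratios 0.80). Ncf1 exceeded Ncf4 7.59- to 14.8-fold in chow and 4.22- to 10.2-fold in HFD, with a difference in log2 ratio of -0.30 (exact p = 0.543, adjusted 0.80). Rac2 stood at 0.0855 to 0.171 of Rac1 in chow and at 0.0472 to 0.178 in HFD, a difference in log2 ratio of -0.54 (exact p = 0.314, adjusted 0.80). The smallest p this design can give is 0.0286 before adjustment, so 1 ratio alone could not pass 0.05 after adjustment over 3 ratios. None of the 3 ratios separated the diets.

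**Figure D4:**
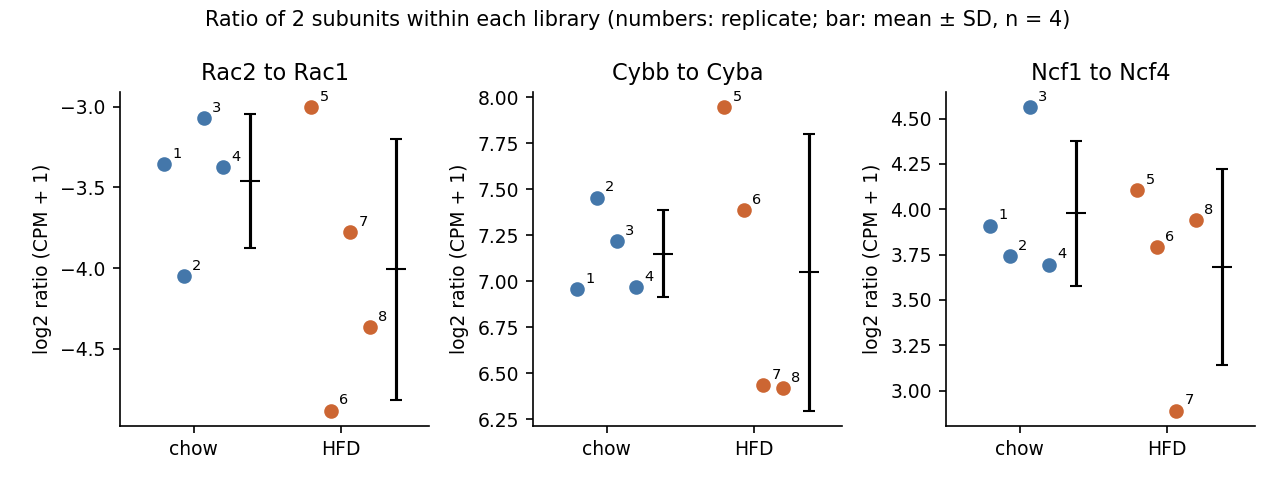
Log2 ratio of 2 oxidase genes within each library, from CPM plus 1, with chow in blue, HFD in orange, the replicate number beside each point and the mean ± SD of 4 libraries as a black bar. The diets overlap for each pair, and the Cybb to Cyba ratio spans 6.42 to 7.95 in HFD against 6.96 to 7.46 in chow.

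The same 3 pairs were also compared for joint variation over the 8 libraries on the log2 (CPM + 1) scale. For Cybb and Cyba Pearson's r was 0.13 (exact permutation p = 0.772, adjusted over 3 pairs 0.772) and Spearman's rank coefficient 0.00 (exact p = 1.0). For Rac2 and Rac1 r was -0.32 (exact permutation p = 0.446, adjusted 0.668) and the rank coefficient -0.24 (exact p = 0.582, adjusted 0.873). For Ncf1 and Ncf4 r was 0.55 (exact permutation p = 0.159, adjusted 0.477) and the rank coefficient 0.71 (exact p = 0.0576, adjusted 0.173). Without the 2 libraries farthest from the median of the second gene, r was 0.25 for Cybb and Cyba (exact p = 0.701), -0.03 for Rac2 and Rac1 (exact p = 0.960) and 0.90 for Ncf1 and Ncf4 (exact p = 0.0222, unadjusted). No pair passed after adjustment over all 8 libraries, and a diet with 4 libraries gives no value of its own. Over all 15 pairs of members, r ran from -0.41 (Cybb and Ncf4) to 0.80 (Cyba and Rac1), as a description with no test. The value for Ncf1 and Ncf4 moved with the libraries left out, HFD replicate 7 and chow replicate 3, which held the highest and the lowest Ncf4 level.

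Other oxidases gave few reads or none. Of 13 genes listed for further subunits and assembly factors, Nox3, Noxa1, Duox1, Duox2, Duoxa1 and Duoxa2 had no read in any library, where 3 reads would be 0.465 to 0.702 CPM. Nox1, the colonic form, had 2 reads in HFD replicate 7 alone, Nox4, a constitutively active form of kidney and stromal cells, had 11 reads, and Noxo1 had 9. The 4 tested genes of this list held 1 higher and 3 lower in HFD, 0 of them at an unadjusted p under 0.05, with a median log2 fold change of -0.12 (0.01 with the stellate and fibroblast covariate). Cybc1, whose product is a chaperone that lets the NOX2 cytochrome reach the membrane, was at 49.1, 38.6, 39.7 and 39.1 CPM under chow and at 34.2, 14.5, 39.0 and 17.3 CPM under HFD. In 3 of the 4 HFD libraries Cybc1 was below every chow library, with HFD replicate 7 inside the chow range, and its log2 fold change was -0.66 (SE 0.53, edgeR adjusted p = 0.987). Rap1a, a small GTPase that was first purified with the cytochrome, had a log2 fold change of -0.20 (SE 0.19, edgeR adjusted p = 0.987). Hvcn1, the proton channel that balances the charge the oxidase moves, was at 30.4 to 88.4 CPM under chow and 35.9 to 61.2 CPM under HFD.

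The genes that work with the oxidase were described by 7 lists. Over all 7 lists edgeR called 0 genes, limma-voom 0 and DESeq2 0. Among all 10129 genes tested, 5.35% had an unadjusted p under 0.05 and 3.40% had diets that did not overlap. By direction, 4925 of the 10129 were higher and 5204 lower in HFD. Without overlap were 1 of 26 tested Rac regulators, 1 of 24 kinases and lipid enzymes, 1 of 19 receptors and 0 in the others. Of 31 genes that load, unload or hold Rac, 26 were tested, 15 higher and 11 lower in HFD, with 1 at an unadjusted p under 0.05 and a median log2 fold change of 0.05 (-0.06 with the stellate and fibroblast covariate). Arhgdib, the leukocyte inhibitor that keeps Rac in the cytosol, was at 262, 258, 328.5 and 237 CPM under chow and at 211, 215, 125 and 132 CPM under HFD. Every HFD library was below every chow library for Arhgdib, but it was not called (log2 fold change -0.67, SE 0.24, edgeR adjusted p = 0.752; 0.258 to 0.997 over the alternatives). The exchange factor genes Vav1 and Dock2 had log2 fold changes of -0.65 (SE 0.42) and 0.08 (SE 0.23), which were -0.09 and -0.15 with the stellate and fibroblast covariate. Arhgef7, another exchange factor, was at 2.46 to 20.2 CPM under chow and 12.6 to 45.6 CPM under HFD (log2 fold change 1.59, SE 0.77, edgeR adjusted p = 0.935).

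Kinases and lipid enzymes that act on the cytosolic subunits had 24 of 26 genes tested, 13 higher and 11 lower, 1 at an unadjusted p under 0.05 and a median log2 fold change of 0.06. Prkcd, a protein kinase C that phosphorylates p47-phox, was at 264, 258, 333 and 301 CPM under chow and at 204, 180, 145 and 246 CPM under HFD. The diets did not overlap for Prkcd, and it was not called (log2 fold change -0.57, SE 0.22, edgeR adjusted p = 0.783). The related Prkcb was at 207 to 342 CPM under chow and 197 to 221 CPM under HFD, and Pik3cg, a phosphoinositide kinase downstream of chemoattractant receptors, had a log2 fold change of 0.05 (SE 0.26). Receptors that trigger the burst had 6 of 19 tested genes higher and 13 lower, 1 at an unadjusted p under 0.05, with a median of -0.09. Clec7a (dectin-1), the receptor for fungal beta-glucan, was at 134 to 215 CPM under chow and 85.7 to 133 CPM under HFD without overlap (log2 fold change -0.63, SE 0.28, edgeR adjusted p = 0.893). Fcgr1, the high-affinity IgG receptor, was at 126 CPM in chow replicate 1 and at 13.95 to 49.1 CPM in the other 7 libraries.

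Of 17 transcription factors of the oxidase genes, 10 were tested, 2 higher and 8 lower in HFD, with 1 at an unadjusted p under 0.05. Their median was -0.28, or -0.14 with the stellate and fibroblast covariate. Under that covariate, which overlapped with diet, Spi1 (0.408, SE 0.877) and Irf8 (0.423, SE 0.458) turned positive. Spi1 (PU.1), the lineage factor of myeloid cells, was at 54.45, 33.3, 27.4 and 21.3 CPM under chow and at 17.5, 37.0, 48.2 and 19.3 CPM under HFD. Irf8, a factor of the interferon response family whose letters are shown above for Cybb and Ncf1, was at 67.9 to 238 CPM under chow and 80.6 to 111 CPM under HFD, and Irf1, which interferon gamma induces, at 30.4 to 85.8 and 5.78 to 91.6 CPM. Cebpb was too low to be tested, at 4.21 CPM or less. Nfkb1 and Rela, subunits of NF-kB, had log2 fold changes of -0.58 (SE 0.28, edgeR adjusted p = 0.912) and -1.23 (SE 0.77, edgeR adjusted p = 0.987). Chow replicate 1 held the highest Spi1, Irf8, Fcgr1, Hvcn1 and Cybb levels of all 8 libraries. Irf1 was highest in HFD replicate 5 and Rela in chow replicate 3. Chow replicate 1 also had the highest sum of macrophage genes, 8168 CPM. Its acinar (0.223 CPM), endocrine (458 CPM) and stellate and fibroblast (24.1 CPM) sums were the lowest. The part of cell composition in these levels of chow replicate 1 was not tested.

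Enzymes that handle superoxide and peroxide had 8 of 18 tested genes higher and 10 lower, 1 at an unadjusted p under 0.05, with a median of -0.15 that turned to 0.19 with limma-voom and 0.23 with the acinar covariate. The superoxide dismutase genes Sod1 (cytosolic) and Sod2 (mitochondrial) had log2 fold changes of 0.70 (SE 0.50; 1.84 with the stellate and fibroblast covariate and 1.09 with the acinar one) and 0.24 (SE 0.55), and catalase, Cat, one of 0.24 (SE 0.21). Xdh, which encodes xanthine oxidoreductase, another source of superoxide, was at 2.01, 9.45, 0 and 3.98 CPM under chow and at 33.6, 11.03, 39.2 and 2.39 CPM under HFD. HFD replicate 8 was within the chow range for Xdh (log2 fold change 2.47, SE 1.17, edgeR adjusted p = 0.925). The stellate and fibroblast sum was at 482, 302, 277 and 103 CPM in HFD replicates 5 to 8, and 3 of these were above every chow library. With that sum as a covariate the log2 fold change of Xdh was 0.73 (SE 1.99). Since most HFD libraries had a higher sum than chow, this covariate overlapped with diet, and the fit could not separate them. With the acinar covariate Xdh was at 2.62 (SE 1.40), and with 1 library left out at 2.01 to 3.42. The part of stromal RNA in the Xdh level was not tested otherwise.

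Actin effectors of Rac had 8 of 20 tested genes higher and 12 lower, 0 at an unadjusted p under 0.05, with a median of -0.01 (0.07 without TMM), and the smallest p there belonged to Abi1 (log2 fold change 0.51, SE 0.28) and Actr3 (-0.22, SE 0.13).

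**Figure D5:**
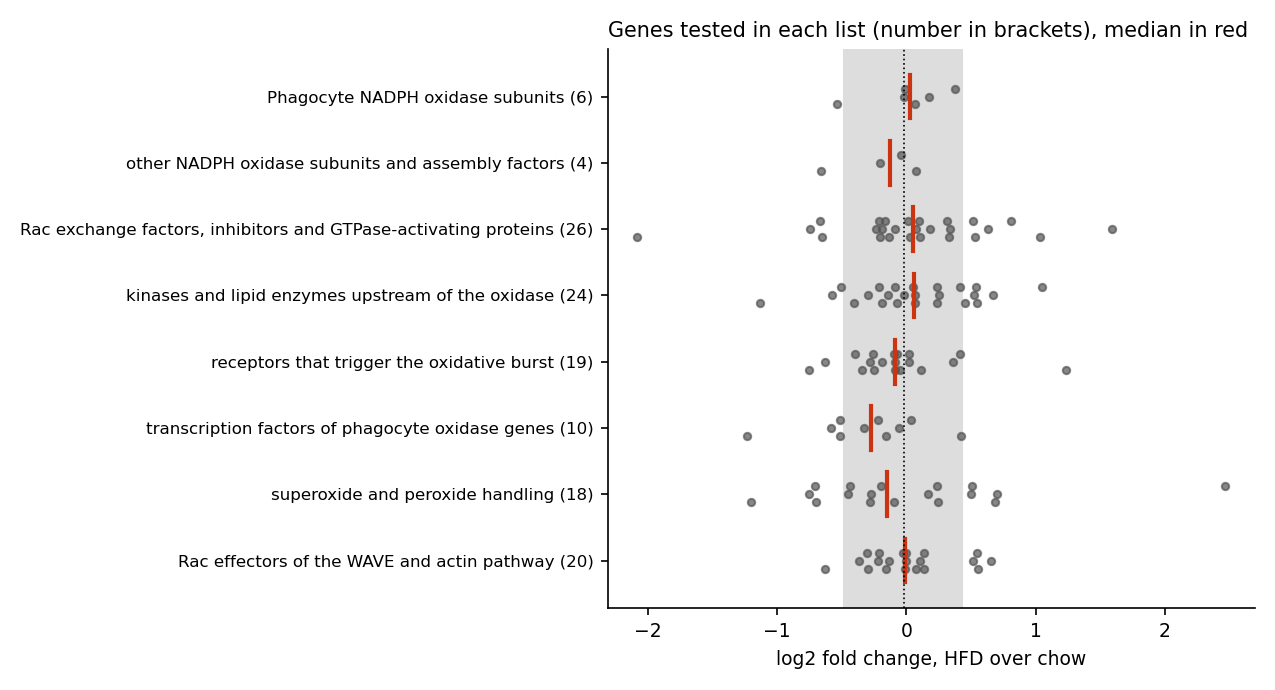
Log2 fold change of HFD over chow for each tested gene (grey points) of the oxidase and 7 lists of genes that work with it, with the number tested in brackets and the median in red. The grey band runs from the lower to the upper quartile of all 10129 genes, from -0.48 to 0.43, and all 8 medians lie inside it, from -0.28 to 0.06.

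Among 2967 genes with a mean of at least 50 CPM, those whose log2 (CPM + 1) profile over the 8 libraries was most like each member's were found by Pearson's r, as a description only, since the best of so many genes is high by selection. Ndst1 (0.96), Rtn3 (0.93) and Hnrnpu (0.93) were most like Cybb. Ifi203 (0.95), 9330162G02Rik (0.92) and Eif3a (0.89) were most like Cyba, and C2cd5 (0.94), Acadsb (0.93) and Mtrex (0.91) most like Ncf1. Zfp608 (0.95), Orc4 (0.90) and Rictor (0.90) were most like Ncf4. Pirb (0.98), Gm43815 (0.97) and Snx10 (0.94) were most like Rac1, and Srsf1 (0.93), Cic (0.93) and Smurf2 (0.88) most like Rac2. Cyba and Ncf4 were themselves below the minimum of 50 CPM and so were not among the genes searched. No gene was named for more than 1 member.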

How the data were processed

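RNA sequencing of sorted islet macrophages was analysed from 8 libraries, 4 for each diet. Libraries were made from 500 pg of RNA with the Ovation RNA-Seq System V2, per the labels' protocols. FastQC, Trim Galore, STAR and genome GRCm38 are named in the submitters' processing notes. What counted the reads, on which annotation, is not given in the sources used here. Per gene, the deposited values are expected counts, with Ensembl identifiers, not scaled between libraries; 7.66% to 8.32% of the values above 0 were not whole, and all were rounded. Gene names, coordinates and lengths came from GENCODE M21 (GRCm38), which held 48058 of 48440 identifiers.

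Genes were tested with edgeR (version 4.0.16; R 4.3.3): TMM scaling, filterByExpr, a robust quasi-likelihood fit with diet as the only term, two-sided, Benjamini-Hochberg adjustment at 0.05 over all genes kept. SEs were derived from that fit, as the absolute log2 fold change divided by the square root of its F statistic. The 95% intervals were built on these SEs with the t distribution, so both are approximate. Ratios and correlations used exact permutation tests (scipy 1.17.1) with a pseudocount of 1 CPM. The intervals include the spread between libraries, while floors (3 counts) and counting errors cover counting only, since no molecular identifiers are stated. Antisense reads could not be separated, since no strand setting is given.

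The members and lists were chosen with earlier results of these data known. Named genes were the 6 members, genes set by role, the 2 genes with the smallest p of each list and the 3 genes most like each member. Alternatives were other scalings (RLE, upper quartile, library totals, the macrophage list), other filters, limma-voom with quality weights (limma 3.58.1), DESeq2 (1.42.0) with its own filter, a fit without the robust option, stromal and acinar covariates, other pseudocounts, other gene lengths and each library left out. A few genes are not reported here.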

Additional observations from a re-analysis of the deposited data

Results flagged for a closer look

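In 6 of 70 groups of 4 libraries, 1 library lay far from the other 3, by a gap above Dixon's 95% critical value; chance gives about 1 in 20. Cybb was at 1930 CPM in HFD replicate 7, against 2302 to 2378 CPM in the other HFD libraries. Cybc1 was at 49.1 CPM and Hvcn1 at 88.4 CPM in chow replicate 1, against 38.6 to 39.7 and 30.4 to 35.8 CPM in the other chow libraries. Dock2 was at 146 CPM in HFD replicate 8, against 239 to 244.5 CPM. Cat was at 232 CPM in HFD replicate 6, against 330.4 to 333 CPM. Nox1 was at 0.417 CPM in HFD replicate 7, from 2 reads, and at 0 in the other HFD libraries.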

How the results depend on the processing

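Of 714 log2 fold changes, medians, ratios and correlations recomputed under an alternative, 62 did not keep their sign; the causes were not tested. Over all genes, the number called was 0 in the edgeR fit, 45 without the filter and 92 with DESeq2. DESeq2 also changes the filter, and gave a p to 16953 genes before it. The number was 1 with limma-voom (which also adds quality weights) and 0 to 11 with 1 library left out (11 without HFD replicate 8). Cybb and Rac1 lay so near 0 that their log2 fold changes turned to 0.013 and 0.025 with upper quartile scaling, 0.055 and 0.059 with library totals, 0.014 and 0.005 with limma-voom, 0.194 and 0.201 with the stellate and fibroblast covariate and 0.079 and 0.079 with macrophage scaling; Cybb was at 0.019 with the acinar covariate, and Ncf1 at -0.019 with limma-voom. Hvcn1 turned to 0.000, 0.033, 0.120, 0.879 and 0.119 under the first 4 of these and the acinar covariate. With the stellate and fibroblast covariate Spi1 was at 0.408, Irf8 at 0.423, Dock2 at -0.151, Fcgr1 at 0.070, Vav1 at -0.087 and Sod1 at 1.844. The median of the Rac regulators was 0.12 with library totals and -0.055 with the stellate and fibroblast covariate, that of the kinases 0.245 with the latter, and that of superoxide and peroxide handling 0.192 with limma-voom and 0.229 with the acinar covariate.

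With 1 library left out, log2 fold changes ran from -0.081 to 0.094 for Cybb, -0.103 to 0.405 for Cyba, -0.036 to 0.23 for Ncf1, 0.047 to 0.655 for Ncf4, -0.097 to 0.102 for Rac1, -0.784 to -0.341 for Rac2, -0.214 to 0.441 for Hvcn1, -0.467 to 0.158 for Spi1, -0.09 to 0.225 for Pik3cg, -0.06 to 0.513 for Sod2, 0.409 to 1.099 for Sod1 and -0.873 to -0.402 for Vav1. The medians ran from -0.048 to 0.109 for the Rac regulators, -0.049 to 0.179 for the kinases, -0.284 to 0.063 for superoxide and peroxide handling, -0.458 to -0.132 for the transcription factors, -0.218 to -0.032 for the receptors, -0.237 to -0.072 for the other oxidase subunits and -0.071 to 0.062 for the actin effectors. The difference in Cybb to Cyba ratio ran from -0.401 to 0.107, and the correlation of these genes from -0.267 to 0.388. For Cyba and Ncf4 counting error was 11.2% to 13.4% of the mean, below the spread between libraries of 29.3% to 46.8%. No paired analysis was possible because the diets share no replicate number.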
